A study of Mus musculus with 3 samples.

Results

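The expression of 10 genes of the decidualizing uterine stroma was followed in RNA-seq libraries of embryonic day (E)6.5 mouse embryos of the *tw18* line. They were chosen by symbol, as steroid hormone receptors (*Pgr*, *Esr1*), transcription factors (*Hand2*, *Foxo1*, *Nr2f2*, *Cebpb*) and enzymes, a protease and a chaperone (*Tdo2*, *Alpl*, *Htra3*, *Cryab*), and all 10 were found among the 23421 genes of the deposited table. The table holds 3 libraries, 1 each of wild type, *tw18*/+ and *tw18*/*tw18* embryos, all from matings of *tw18*/+ mice and without treatment named in the labels. The strain is labelled 129/SvEv, but the study proposes that non-inbred backgrounds might account for variation of the phenotype between mutant embryos. *tw18* is a *t* haplotype whose large deletion on chromosome 17 takes out *Ppp2r1a*, which encodes a scaffold subunit of the phosphatase PP2A. The labels name the tissue as epiblast, but by the study's text the visceral endoderm was left on it, and genotypes were read from the rest of each conceptus. The number of embryos in each library is not given in the sources used here.

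Decidualization is the change by which fibroblasts of the uterine stroma become the large secretory cells of the decidua around an implanting embryo. In this tissue progesterone, bound to its receptor PGR, induces HAND2, which restrains growth factor signals that would otherwise keep estrogen receptor activity high in the overlying epithelium. NR2F2, BMP2, WNT4 and C/EBPβ act in the same stromal program, and the mature decidua makes enzymes such as TDO2 and alkaline phosphatase together with hormones of the prolactin family.

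Levels are given as FPKM, the number of sequenced fragments divided by the length of the transcript and the size of the library, and can be compared between genes of a library. From the steps between low values, 1 fragment on a transcript of 1 kb was worth an FPKM of 0.0728 in wild type, 0.0519 in *tw18*/+ and 0.0523 in *tw18*/*tw18*, so that wild type had the lowest depth. Intervals are exact Poisson intervals at 95% of the estimated fragments of a gene. The fragments were estimated for the longest transcript of a gene with a RefSeq mRNA entry. Shorter transcripts would give fewer fragments and wider intervals. Copies of a molecule made by PCR count separately, so the intervals hold counting error alone. With 1 library per genotype there is no measure of the spread between embryos, and a difference between libraries is not shown to be a difference between genotypes. The FPKM of *Ppp2r1a* was 146 in wild type, 81.7 in *tw18*/+ and 12.8 in *tw18*/*tw18*, in the order that the labels give. The level in *tw18*/*tw18* was 8.72% of that in wild type and not 0, although the deletion removes the gene, and where these fragments came from was not tested. Libraries are therefore named by their labels throughout. All 12 epiblast markers listed reached an FPKM of 1 in each library, but at unlike levels. *Pou5f1*, which encodes the pluripotency factor OCT4, was among the most abundant, with 628 in wild type, 721 in *tw18*/+ and 274 in *tw18*/*tw18*. *Nanog*, another pluripotency gene, had 23.0, 27.1 and 5.35.

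Most of the decidual stroma genes had their highest level in *tw18*/*tw18*. A gene was counted as higher or lower between a pair of libraries where the log2 ratio of its FPKM reached 1 in size and the larger FPKM reached 1. By this rule 5 of the 10 genes were higher in *tw18*/*tw18* than in wild type (*Tdo2*, *Nr2f2*, *Esr1*, *Hand2* and *Pgr*), beside 15.1% of all 12917 genes compared, and 0 were lower, beside 6.94%. Against *tw18*/+, 7 of the 10 were higher in *tw18*/*tw18*, the same 5 with *Cryab* and *Htra3*, beside 14.9% of 12846 genes, and 0 were lower, beside 5.65%. Between *tw18*/+ and wild type none of the 10 was counted, with 0 higher, beside 4.7% of 12426 genes, and 0 lower, beside 5.02%. On the scale of log2(FPKM + 1), the 10 genes had a median difference of 0.91 for *tw18*/*tw18* against wild type, 1.41 against *tw18*/+ and 0.048 for *tw18*/+ against wild type, while the medians over all genes compared were -0.0074, 0.0047 and 0.0026. Markers of uterine stroma and fibroblasts also had their highest summed FPKM in *tw18*/*tw18*, with 89.9 in wild type, 97.5 in *tw18*/+ and 369 in *tw18*/*tw18*. The same held for the other tissue lists given below, except those of decidua, epiblast, and primitive streak and mesoderm. Decidua markers summed to 1870 in wild type, 419 in *tw18*/+ and 920 in *tw18*/*tw18*. The part of these tissues in the result was not tested. In bulk RNA, fewer cells of a type and less RNA per cell cannot be told apart. The comparisons share libraries and are not independent of each other. The shares of all genes given here also stand beside the counts of other gene lists below. Those lists were written with earlier results of these data known.

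**Figure D1:**
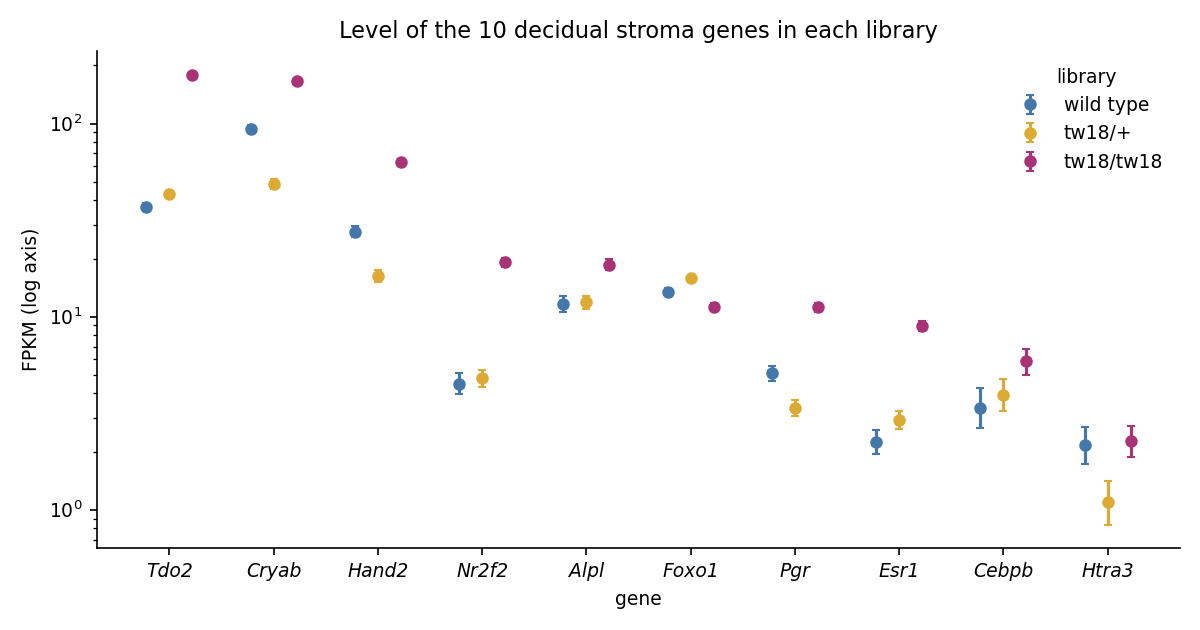
FPKM (log axis) of each of the 10 genes in the wild type, tw18/+ and tw18/tw18 library, with 95% counting intervals where they are wider than the point. *Tdo2* stood at 37.0, 43.1 and 179, *Foxo1* was the only gene of the 10 with its lowest level in *tw18*/*tw18*, and *Cryab*, *Hand2*, *Pgr* and *Htra3* were lowest in *tw18*/+.

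The summed FPKM of the 10 genes was 201 in wild type, 152 in *tw18*/+ and 485 in *tw18*/*tw18*. *Cryab* had the highest level of the 10 in wild type and *tw18*/+, followed by *Tdo2* and *Hand2*, and the order of *Cryab* and *Tdo2* was exchanged in *tw18*/*tw18*. *Htra3* was lowest in each library. Neighbors in this order whose counting intervals overlapped were *Foxo1* and *Alpl*, *Pgr* and *Nr2f2*, *Nr2f2* and *Cebpb*, and *Esr1* and *Htra3* in wild type, *Hand2* and *Foxo1*, *Nr2f2* and *Cebpb*, *Cebpb* and *Pgr*, and *Pgr* and *Esr1* in *tw18*/+, and *Nr2f2* and *Alpl*, and *Foxo1* and *Pgr* in *tw18*/*tw18*. Each of the 10 genes lay at or above the middle of all genes of the table in every library, and *Tdo2* in *tw18*/*tw18* lay above 98.8%. That middle is a low level, since 8328 genes were listed at 0 in wild type, 7211 in *tw18*/+ and 7178 in *tw18*/*tw18*. *Htra3* in *tw18*/+ stood there with an FPKM of 1.10. None of the 10 genes was listed at 0, and none lies on chromosome 17.

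The genes fell into different patterns over the 3 libraries. *Tdo2*, *Nr2f2* and *Esr1* differed by at most 1.30-fold between wild type and *tw18*/+ and were 3.05- to 4.83-fold higher in *tw18*/*tw18*. *Hand2*, *Pgr*, *Cryab* and *Htra3* were lower in *tw18*/+ than in wild type, by 1.51- to 1.97-fold, and their levels in *tw18*/*tw18* were between 1.05 and 2.29 times those of wild type. *Cebpb* and *Alpl* were 1.49- to 1.74-fold higher in *tw18*/*tw18* than in the other libraries, and *Foxo1* varied least.

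**Figure D2:**
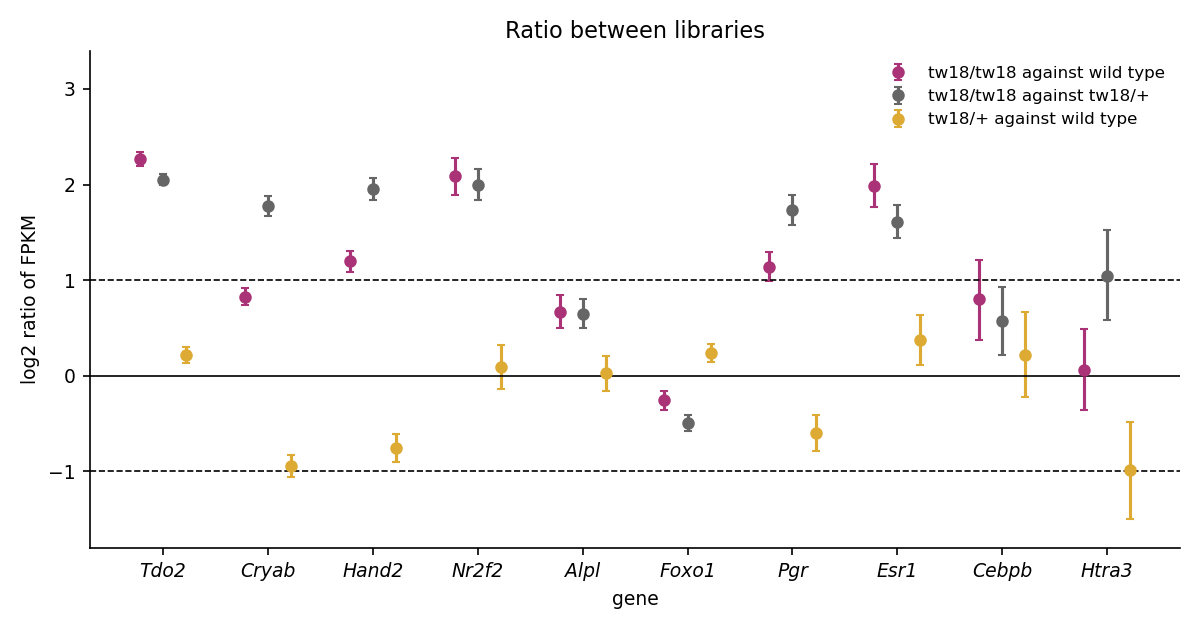
log2 ratio of FPKM for each of the 10 genes in the 3 pairs of libraries, with 95% counting intervals of the ratio and dashed lines at the limit of 1 used for counting. *Tdo2* and *Nr2f2* lay at or near 2 against both other libraries, whereas the ratios of *Cryab* were 0.83 against wild type and 1.78 against *tw18*/+.

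Both steroid receptor genes were counted as higher in *tw18*/*tw18*. *Pgr* encodes the progesterone receptor and lies on chromosome 9 (8899833-8968611, plus strand, GRCm38). Its FPKM was 5.08 (4.63-5.55) in wild type, 3.36 (3.06-3.69) in *tw18*/+ and 11.2 (10.6-11.8) in *tw18*/*tw18*. The 3 intervals did not overlap, and *tw18*/*tw18* was 2.2-fold above wild type and 3.33-fold above *tw18*/+. The interval of the log2 ratio against wild type, 0.99 to 1.29, reached just below the limit of 1. *Esr1* encodes estrogen receptor alpha and lies on chromosome 10 (4611593-5005614, plus strand). It reached an FPKM of 2.25 (1.95-2.59) in wild type, 2.92 (2.62-3.23) in *tw18*/+ and 8.91 (8.39-9.46) in *tw18*/*tw18*. The library of *tw18*/*tw18* stood apart, 3.97-fold above wild type and 3.05-fold above *tw18*/+, and *tw18*/+ was 1.30-fold above wild type with intervals that did not overlap. Of all genes compared, 5.78% had a larger ratio of *tw18*/*tw18* to wild type than *Esr1*, and 12.9% a larger one than *Pgr*.

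Related receptors were also higher in *tw18*/*tw18*. *Nr3c1*, the glucocorticoid receptor gene, stood at 1.62 FPKM in wild type, 3.11 in *tw18*/+ and 5.15 in *tw18*/*tw18*. Among the estrogen-related receptor genes, *Esrra* stood at 2.58, 5.88 and 9.91 and *Esrrb*, which is known from extra-embryonic ectoderm, at 1.19, 0.939 and 3.91. All 3 were counted as higher in *tw18*/*tw18* against wild type, and *Esrrb* also against *tw18*/+. Unlike *Pgr*, *Nr3c1* had its lowest level in wild type.

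Proteins that hold the receptors or act with them did not move as a group. Of 15 measured receptor partners and coregulators, 3 were higher and 0 lower in *tw18*/*tw18* than in wild type, with a median difference of -0.013, and 2 were higher and 0 lower against *tw18*/+, with a median of 0.036. None of the 15 was counted between *tw18*/+ and wild type. The coactivator gene *Ncoa1*, with 0.850, 1.40 and 3.15, was among those with the largest ratios to wild type. The smallest were those of the chaperone genes *Ptges3* (p23), with an FPKM of 242, 247 and 158 in wild type, *tw18*/+ and *tw18*/*tw18*, and *Hsp90aa1*, with 1205, 1231 and 857, neither of which reached the limit.

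*Hand2* had the highest FPKM of the transcription factor genes among the 10 in each library, with an interval that overlapped that of *Foxo1* in *tw18*/+. It encodes a basic helix-loop-helix factor induced by progesterone in uterine stroma, which also acts in the heart and limb buds, and lies on chromosome 8 (57320983-57324633, plus strand). The FPKM was 27.5 (25.7-29.4) in wild type, 16.3 (15.1-17.5) in *tw18*/+ and 63.0 (60.7-65.4) in *tw18*/*tw18*. The level in *tw18*/+ was 1.69-fold below wild type, and *tw18*/*tw18* was 2.29-fold above wild type and 3.87-fold above *tw18*/+. Its only paralog, *Hand1*, a gene of trophoblast giant cells and extra-embryonic mesoderm, differed in the middle value, with 9.31 in wild type, 14.0 in *tw18*/+ and 34.6 in *tw18*/*tw18*.

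*Nr2f2* encodes the orphan nuclear receptor COUP-TFII, which acts downstream of epithelial Indian hedgehog in uterine stroma and is expressed in many other mesenchymal cells and in veins. It lies on chromosome 7 (70351944-70366735, minus strand). The FPKM was 4.50 (3.97-5.08) in wild type, 4.79 (4.32-5.28) in *tw18*/+ and 19.1 (18.2-20.1) in *tw18*/*tw18*. Wild type and *tw18*/+ overlapped in their intervals, and *tw18*/*tw18* was 4.24-fold and 3.99-fold above them. The related *Nr2f6* was highest in wild type, with an FPKM of 12.7, against 8.39 in *tw18*/+ and 9.69 in *tw18*/*tw18*.

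The stretches of 250 bases before the start sites of *Hand2* and *Nr2f2* are shown because both are stromal regulators that were higher in *tw18*/*tw18*, yet only *Hand2* was lower in *tw18*/+ (RefSeq, GRCm38.p6, 5′ to 3′ on the strand of the gene). Capitals mark, on either strand, CATCTG, an E-box bound by HAND factors, TTGCNNNAA, the C/EBP motif, GGTCA and AGGTCA, core motifs of nuclear receptors, TGTTCT, a core motif of the progesterone receptor, and GTAAACA, the FOXO motif.
*Hand2*, chr8:57320733-57320982, plus strand: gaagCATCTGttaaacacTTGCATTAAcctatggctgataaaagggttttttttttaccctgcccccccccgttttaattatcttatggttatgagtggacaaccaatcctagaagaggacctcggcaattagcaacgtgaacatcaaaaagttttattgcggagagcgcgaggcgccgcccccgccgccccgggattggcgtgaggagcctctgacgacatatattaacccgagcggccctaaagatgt
*Nr2f2*, chr7:70366747-70366996, minus strand: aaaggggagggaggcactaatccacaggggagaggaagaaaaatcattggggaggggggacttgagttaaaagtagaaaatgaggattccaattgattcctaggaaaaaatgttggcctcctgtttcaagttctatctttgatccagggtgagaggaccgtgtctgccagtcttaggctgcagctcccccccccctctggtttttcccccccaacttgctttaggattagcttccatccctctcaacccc

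The stretch of *Hand2* holds CATCTG and TTGCATTAA near its upstream end, whereas none of these letters was found in that of *Nr2f2*. Windows from 250 bases before to 50 after the start were given for 9 of the 10 genes, all but *Cryab*. They were 11 windows, and a gene is named where any of its windows matched, whereas the shares of all promoters are per window. CATCTG lies in the windows of *Pgr*, *Hand2*, *Alpl* and *Htra3*, 4 of these 9 genes, and in 17.2% of all 32851 windows of the RefSeq table. TTGCNNNAA lies in those of *Pgr*, *Esr1* and *Hand2* and in 9.56% of all windows. Stretches of 30 bases show the matches before the start in *Pgr* and *Esr1*, the receptor genes, and in *Tdo2*, the enzyme gene highest in *tw18*/*tw18*. Those of *Esr1* and *Tdo2* precede the RefSeq start but lie within other annotated exons of the same gene.
*Pgr*, chr9:8899679-8899708, plus strand: ttcttctcaaagCATCTGatattccaggtg
*Pgr*, chr9:8899802-8899831, plus strand: agcgccaacgcTTGCTAGAAagctatggag
*Esr1*, chr10:4611756-4611785, plus strand: gacttcgagctTTATTGCAAggaaagagaa
*Tdo2*, chr3:81975729-81975758, minus strand: atctgggaaggttgataccattccTGACCT
The capitals of *Esr1* and *Tdo2* are matches on the other strand, to TTGCNNNAA and to AGGTCA, which contains GGTCA. The longer of these lies in the windows of *Tdo2* and *Alpl* and in 16.3% of all windows, and the shorter, GGTCA, in those of 4 of the 9 genes and in 40.5%. TGTTCT was found for *Alpl* alone among the 9 genes, beside 19.0% of all windows. GTAAACA, in 3.65% of all windows, and the inverted repeat of GGTCA with 3 bases between, in 0.07%, were found in none of the 9. A match of letters is a description of the sequence and does not show that a factor binds there. Whether these letters have a part in the levels of the genes was not tested.

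*Foxo1* was the gene of the 10 that differed least between the libraries. It encodes a forkhead factor that works with PGR in decidual cells and downstream of insulin signaling in most cell types, and lies on chromosome 3 (52268336-52353221, plus strand). Its FPKM was 13.4 (12.7-14.0) in wild type, 15.8 (15.2-16.4) in *tw18*/+ and 11.2 (10.7-11.7) in *tw18*/*tw18*. The intervals did not overlap, with the lowest level in *tw18*/*tw18*, 1.41-fold below *tw18*/+ and 1.19-fold below wild type. *Foxo4*, the most abundant of its paralogs, stood at 41.4, 29.0 and 37.7 in wild type, *tw18*/+ and *tw18*/*tw18*. *Foxo3* had an FPKM of 5.97, 3.73 and 10.2, counted as higher in *tw18*/*tw18* against *tw18*/+. *Foxo6* reached 1.03 in *tw18*/*tw18*, against 0.315 in wild type and 0.287 in *tw18*/+.

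*Cebpb* encodes C/EBPβ, a basic leucine zipper factor required in stroma for decidualization, and lies on chromosome 2 (167688915-167690418, plus strand). Its FPKM was 3.37 (2.64-4.28) in wild type, 3.93 (3.24-4.73) in *tw18*/+ and 5.86 (4.99-6.80) in *tw18*/*tw18*. The last value was the highest, 1.74-fold above wild type and 1.49-fold above *tw18*/+, and neither ratio reached the limit. The estimate rests on 70 to 168 fragments, and intervals of wild type and *tw18*/+ overlapped. *Cebpa* and *Cebpd*, both paralogs, were counted as higher in *tw18*/*tw18* against both other libraries, the first with 1.32 in wild type, 1.08 in *tw18*/+ and 2.94 in *tw18*/*tw18*, the other with 0.833, 0.207 and 1.92. The widely expressed *Cebpg* had 7.32, 6.87 and 5.83.

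Many other transcription factors of the uterine stroma were higher in *tw18*/*tw18*. Of 26 measured, 13 were higher and 0 lower in *tw18*/*tw18* than in wild type, with a median difference of 0.68, and of 27 measured 18 were higher and 1 lower against *tw18*/+, with a median of 1.04. Between *tw18*/+ and wild type 2 of 25 were higher and 1 lower, with a median of -0.057. The largest ratios were those of 2 HOXA genes, which pattern the reproductive tract. *Hoxa9* stood at an FPKM of 0.450 in wild type, 1.10 in *tw18*/+ and 5.64 in *tw18*/*tw18*, and *Hoxa11* 3.67, 6.87 and 30.8. The smallest were those of *Hif1a*, the hypoxia factor gene, with 68.4, 59.4 and 60.4, and *Foxm1*, a regulator of mitotic genes, with 28.1, 27.1 and 26.1.

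The enzyme *Tdo2* had the largest difference of the 10 genes. It encodes tryptophan dioxygenase, which opens the ring of tryptophan at the entry to the kynurenine pathway and is abundant in liver and in mature decidua. The gene lies on chromosome 3 (81957090-81976202, minus strand). Its FPKM was 37.0 (35.3-38.8) in wild type, 43.1 (41.5-44.7) in *tw18*/+ and 179 (175-182) in *tw18*/*tw18*. *tw18*/*tw18* was 4.83-fold above wild type and 4.15-fold above *tw18*/+, and *tw18*/+ was 1.16-fold above wild type. A larger ratio of *tw18*/*tw18* to wild type was found for 4.65% of all genes compared.

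**Figure D3:**
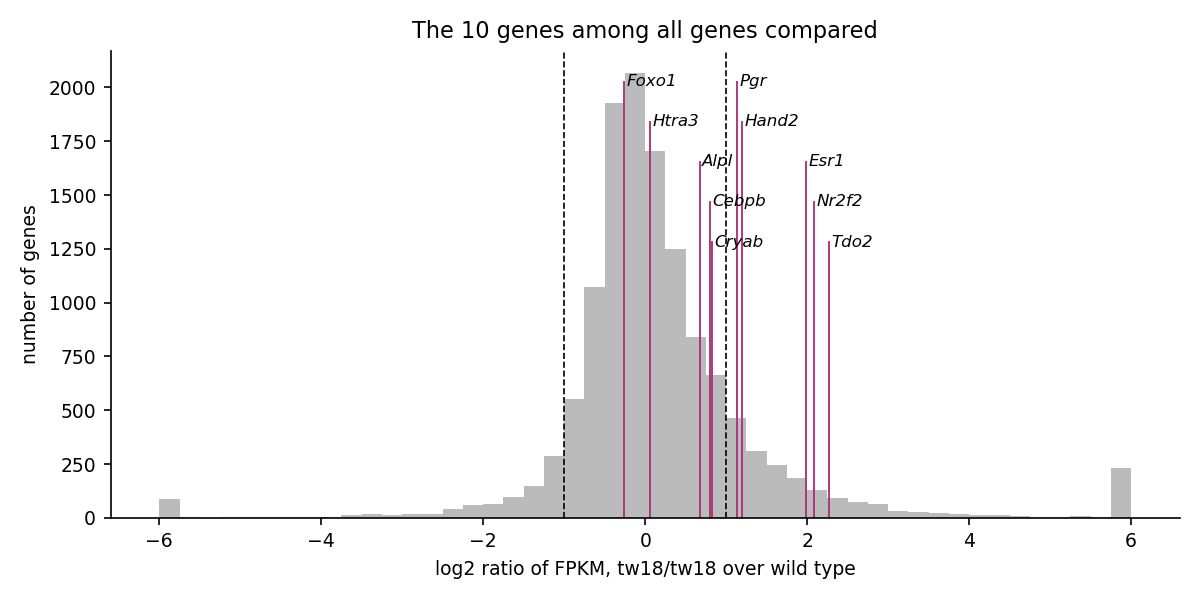
Number of genes by log2 ratio of FPKM, *tw18*/*tw18* over wild type, among the 12917 genes compared, with a line for each of the 10 genes and dashed lines at the limit of 1. The bars at either end hold genes beyond the axis and genes listed at 0 in 1 of the 2 libraries. *Foxo1* lay at -0.26 within the bulk of all genes, and *Tdo2* at 2.27 in its upper tail.

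The other genes of tryptophan uptake and the kynurenine pathway did not share the values of *Tdo2*. Of 9 measured, 1 was higher and 1 lower in *tw18*/*tw18* than in wild type, with a median difference of -0.26. Against *tw18*/+, 1 of 8 was higher and 2 lower, with a median of -0.33, and between *tw18*/+ and wild type 1 of 10 was higher and 0 lower, with a median of -0.020. *Slc7a8*, a transporter of neutral amino acids, was the gene counted as higher, with 21.7 in wild type, 24.8 in *tw18*/+ and 51.1 in *tw18*/*tw18*. Its heavy chain partner *Slc3a2* had 48.7, 45.5 and 53.6. *Ido1*, the other gene of the first step and known from immune and placental cells, was listed at 0 in all 3 libraries, and *Ido2* had an FPKM of 1.03, 0.688 and 0.554. *Kyat3*, listed as *Ccbl2* and encoding a kynurenine aminotransferase, had the smallest ratio to wild type, with 2.51, 2.47 and 0.929, and was the gene counted as lower.

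*Alpl* encodes tissue-nonspecific alkaline phosphatase, a classical stain for decidual cells that is also found in epiblast and germ cells, and lies on chromosome 4 (137741733-137796384, minus strand). Its FPKM was 11.7 (10.6-12.9) in wild type, 11.9 (10.9-12.9) in *tw18*/+ and 18.6 (17.4-19.8) in *tw18*/*tw18*. Wild type and *tw18*/+ did not differ beyond their counting intervals, and *tw18*/*tw18* was 1.59-fold and 1.57-fold above them, short of the limit. The 3 other alkaline phosphatase genes were near or at 0, with *Alpi* and *Akp3* listed at 0 in each library and a summed FPKM of at most 0.270.

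*Htra3* encodes a secreted serine protease of the HtrA family that is made by decidual cells, and lies on chromosome 5 (35652023-35679782, minus strand). Its FPKM was 2.17 (1.73-2.70) in wild type, 1.10 (0.831-1.41) in *tw18*/+ and 2.26 (1.88-2.71) in *tw18*/*tw18*. *tw18*/+ was the low library, and wild type and *tw18*/*tw18* overlapped. The ratio of *tw18*/*tw18* to *tw18*/+ was counted, but with 58 to 119 fragments per library the interval of its log2, 0.58 to 1.53, included the limit of 1. The paralog *Htra1* was also lowest in *tw18*/+, with an FPKM of 9.72, but highest in wild type, with 46.8, against 22.1 in *tw18*/*tw18*. *Htra2*, which encodes a mitochondrial protease, had 19.2, 22.2 and 12.4 in wild type, *tw18*/+ and *tw18*/*tw18*.

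*Cryab* encodes alpha-B crystallin, a small heat shock protein that binds unfolded proteins and is abundant in lens, muscle and decidua, and lies on chromosome 9 (50751325-50756636, plus strand). Its FPKM was 93.8 (89.0-98.8) in wild type, 48.6 (45.7-51.7) in *tw18*/+ and 167 (161-172) in *tw18*/*tw18*. The intervals did not overlap, with *tw18*/+ 1.93-fold below wild type and *tw18*/*tw18* 1.78-fold above wild type and 3.43-fold above *tw18*/+. Of all genes compared between *tw18*/+ and wild type, 5.5% had a smaller ratio than *Cryab* and 5.17% a smaller one than *Htra3*.

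Small heat shock genes related to *Cryab* differed in the library that was lowest. *Hspb1* reached an FPKM of 14.8 in wild type, 14.8 in *tw18*/+ and 42.3 in *tw18*/*tw18*, and *Hspb8* 19.4, 20.0 and 54.8, so that wild type and *tw18*/+ were alike in both. *Hspb7*, a gene of heart and muscle, was low in *tw18*/+ alone, with 7.25, 2.74 and 7.20. *Cryaa*, the lens partner of *Cryab*, stood at 1.11, 2.29 and 2.84, and *Hspb6* was listed at 0 in wild type with 1.92 in *tw18*/+ and 1.85 in *tw18*/*tw18*. Over the 32 paralogs of the 10 genes, 20 reached an FPKM of 1 in any library and 5 were listed at 0 in all. Of the 20 compared between *tw18*/*tw18* and wild type, 12 were higher and 1 was lower, with a median difference of 0.73. Against *tw18*/+, 11 of 19 were higher and 0 lower, with a median of 0.78, and between *tw18*/+ and wild type 3 of 18 were higher and 2 lower, with a median of -0.039.

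The signals that act on stroma during decidualization, and their receptors, were mostly higher in *tw18*/*tw18* or not counted. Of 22 measured, 11 were higher and 2 lower than in wild type, with a median difference of 0.81, and 13 were higher and 1 lower than in *tw18*/+, with a median of 0.995. Between *tw18*/+ and wild type, 2 of 20 were higher and 2 lower, with a median of -0.082. *Wnt6*, a ligand of uterine epithelium and stroma, stood at an FPKM of 0.490 in wild type, 1.76 in *tw18*/+ and 5.55 in *tw18*/*tw18*, and *Il11*, a cytokine required for decidualization, 0.224, 0.614 and 2.2. These were the largest ratios to wild type among genes above 0 in both libraries, but both genes were below an FPKM of 1 in wild type. *Lif*, a cytokine gene of implantation that was also counted as higher, was listed at 0 in wild type, with 0.191 in *tw18*/+ and 1.39 in *tw18*/*tw18*. *Ptgis*, the prostacyclin synthase gene, with 17.1, 13.3 and 6.31, and *Ptch1*, the hedgehog receptor gene, with 22.3, 17.3 and 9.91, had the smallest and were both counted as lower.

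Other decidual enzymes, secreted proteins and markers fell on both sides. Of 29 measured, 14 were higher and 4 lower in *tw18*/*tw18* than in wild type, with a median difference of 0.91. Against *tw18*/+, 19 of the 29 were higher and 0 lower, with a median of 1.02, and 2 were higher and 7 lower in *tw18*/+ than in wild type, with a median of -0.021. *Dio3*, which inactivates thyroid hormone, reached an FPKM of 2.98 in wild type, 5.69 in *tw18*/+ and 27.5 in *tw18*/*tw18*, and *Igf1*, a growth factor of stroma, 2.22, 3.09 and 14.8. The genes of decidual prolactins had the opposite order of wild type and *tw18*/*tw18*. *Prl8a2* stood at an FPKM of 1504 in wild type, 155 in *tw18*/+ and 377 in *tw18*/*tw18*, and *Prl3c1* 121, 13.2 and 25.2. Both were lowest in *tw18*/+, as *Hand2*, *Pgr*, *Cryab* and *Htra3* were, but highest in wild type. Over all 101 measured genes of these lists, 42 were higher and 7 lower in *tw18*/*tw18* than in wild type, with a median of 0.59. Of 101 compared with *tw18*/+, 53 were higher and 4 lower, with a median of 0.85, and 7 of 99 were higher and 10 lower in *tw18*/+ than in wild type, with a median of -0.022.

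**Figure D4:**
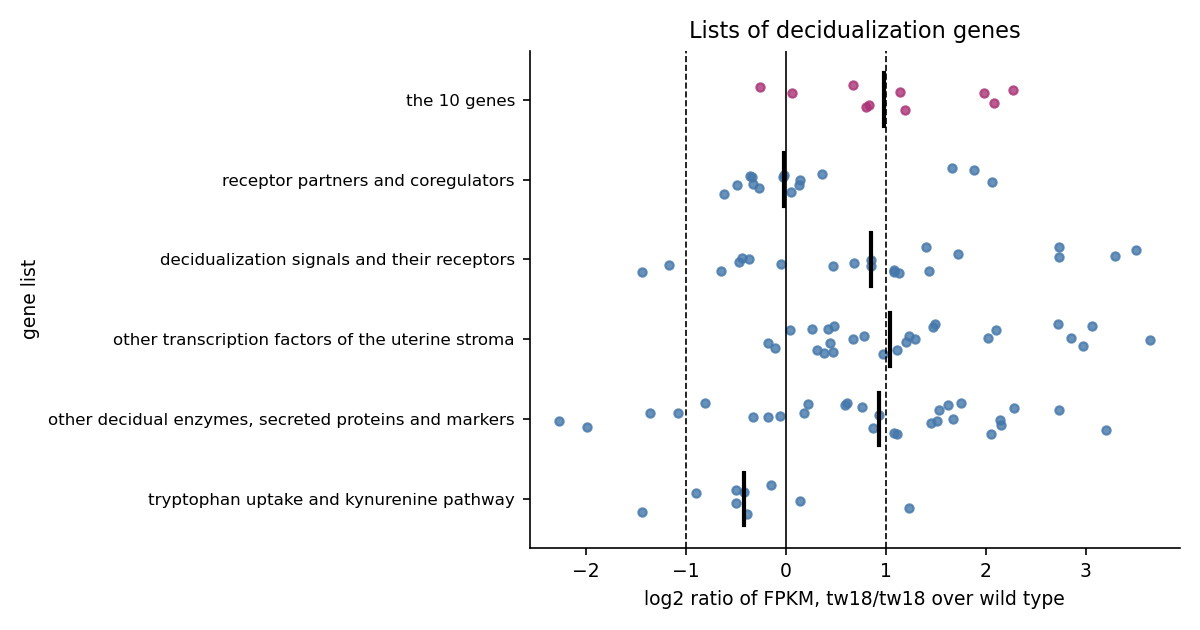
log2 ratio of FPKM, *tw18*/*tw18* over wild type, of the 10 genes and of the genes of 5 lists, with a point per gene above 0 in both libraries and at least 1 in either, a black bar at the median of the points and dashed lines at the limit of 1. The points of the stromal transcription factors lay from just below 0 upwards, whereas those of other decidual enzymes, secreted proteins and markers reached from -2.27 for *Prl3c1* to 3.21 for *Dio3*.

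Among markers of uterine stroma and of decidua, most genes counted were higher in *tw18*/*tw18* than in wild type, but the decidua sum was highest in wild type. Of 12 marker genes of uterine stroma and fibroblasts, 9 were higher and 0 lower in *tw18*/*tw18* than in wild type and the same numbers were found against *tw18*/+, and none was at 0 in any library. The sum given above was led by the collagen gene *Col1a1* with 35.9, 32.0 and 174, *Fbln1* with 15.9, 21.3 and 32.7 and *Col1a2* with 7.29, 6.63 and 35.5. Between *tw18*/+ and wild type, 1 of 11 was higher and 1 lower. The 12 decidua markers, all of which are also in the lists above, summed to 1870, 419 and 920, with 7 higher and 2 lower in *tw18*/*tw18* than in wild type, 9 higher and 0 lower than in *tw18*/+, and 0 higher and 3 lower in *tw18*/+ than in wild type. *Prl8a2* was the most abundant, followed by *Gja1*, which encodes a gap junction protein, with 110, 110 and 198, and *Cyp26a1*, which degrades retinoic acid, with 56.6, 59.6 and 85.4. Without the 2 prolactin genes, a choice made after seeing the data, the other 10 summed to 245, 251 and 517. None of the decidua markers was listed at 0 in any library.

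Endothelial markers had a summed FPKM of 45.2 in wild type, 30.7 in *tw18*/+ and 108 in *tw18*/*tw18*. Of 10 measured, 7 were higher and 0 lower in *tw18*/*tw18* than in wild type, and all 10 were higher against *tw18*/+. In *tw18*/+ against wild type the markers differed in direction, with 3 of 9 higher and 3 lower and a median difference of -0.086, so the lower sum was that of the most abundant genes. The vascular cadherin gene *Cdh5* had an FPKM of 23.2, 12.9 and 38.8, *Pecam1* 8.39, 3.23 and 14.9 and *Eng* 2.72, 2.51 and 15.6. Epiblast markers summed to 1941, 2097 and 1052, with 2 of 12 higher and 5 lower in *tw18*/*tw18* than in wild type, 1 higher and 5 lower than in *tw18*/+, and none counted between *tw18*/+ and wild type. *Dnmt3b*, a DNA methyltransferase gene, had 719, 733 and 359, *Pou5f1* is given above, and *Utf1* had 165, 160 and 114. The part of these tissues in the values of the 10 genes was not tested.

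**Figure D5:**
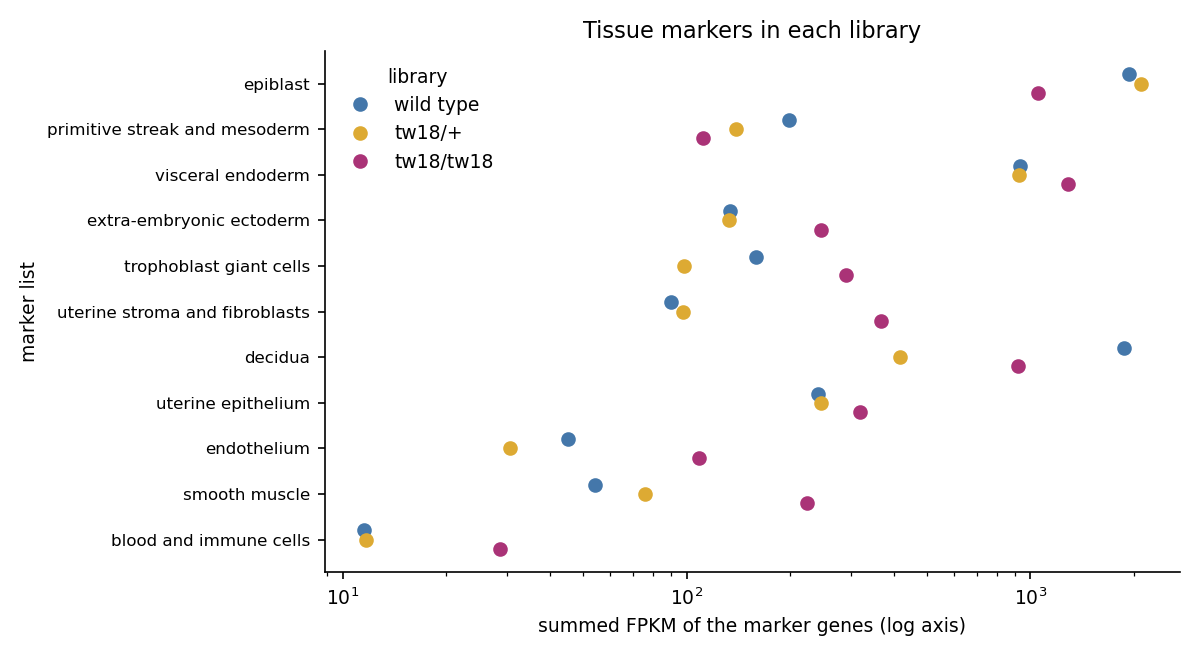
Summed FPKM (log axis) of the marker genes of each tissue list in the 3 libraries. The stroma and fibroblast list stood at 89.9 in wild type, 97.5 in *tw18*/+ and 369 in *tw18*/*tw18*, the epiblast list was lowest in *tw18*/*tw18* with 1052, and the decidua list was highest in wild type with 1870.

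Of the 10 genes, 5 share exon sequence with a gene on the other strand. *Cebpb* shares 312 bases with *Tmem189*, whose FPKM was 34.9 in wild type, 31.5 in *tw18*/+ and 26.7 in *tw18*/*tw18*, the reverse of the order of *Cebpb*. *Cryab* shares 252 bases with *Hspb2*, which was listed at 0 in wild type, with 0.864 in *tw18*/+ and 0.467 in *tw18*/*tw18*. *Nr2f2* shares 643 bases with *B130024G19Rik*, which had an FPKM of 0.2, 0 and 0.633. For *Hand2* the partner is *Hand2os1*, over 461 bases, and for *Foxo1* it is *Gm20402*, over 674 bases, and neither symbol was found in the table. The kit keeps strand, but the strand setting of the counting is not given in the sources used here, so reads of the partners within these bases are uncertain.

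The scaling of the libraries moved all ratios alike. Rescaling to equal FPKM sums adds 0.21 to each log2 ratio of *tw18*/*tw18* to wild type and 0.25 to each ratio to *tw18*/+, and takes 0.035 from those of *tw18*/+ to wild type. Centering on the median log2 ratio of the 11069 genes that reached an FPKM of 1 in each library adds 0.049 to both ratios of *tw18*/*tw18*.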

How the data were processed

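RNA of E6.5 embryos was analysed from 1 library per genotype, wild type, *tw18*/+ and *tw18*/*tw18*, grouped by the labels. Libraries were made with the TotalScript kit, and the authors mapped 50 bp paired-end reads to mm10 (GRCm38) with TopHat and computed the deposited FPKM values with Cuffdiff. The submitters' processing notes list Bowtie 1.0.0 and Cufflinks 2.2.1. The gene annotation, the library normalization and the strand setting are not given in the sources used here. FPKM is a share of a library, so a few abundant genes can shift all its other values.

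Ratios were taken from the deposited FPKM without a pseudocount, and a gene was counted at a log2 ratio of at least 1 with an FPKM of at least 1 in the higher library. Medians of lists are of differences of log2(FPKM + 1), which understates the change of low genes. The depth was estimated from low FPKM values of genes with 1 annotated transcript of at least 500 bases. Of the values used, 204 in wild type, 316 in *tw18*/+ and 246 in *tw18*/*tw18*, between 84.8% and 86.4% came within 0.2 of whole fragments, so fragment numbers are estimates. Intervals of a level are exact Poisson intervals at 95%, and those of a ratio exact conditional binomial intervals. No test was made, since each genotype has 1 library.

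The 10 genes, the lists of pathway genes, paralogs and tissue markers, and the motifs were chosen with earlier results of these data known. All 256 symbols of the lists were in the table, 4 under an older symbol. Besides the 10 genes, the text names the 2 genes with the largest and the 2 with the smallest ratio of *tw18*/*tw18* to wild type in each pathway list, the paralogs with an FPKM of at least 1, the 3 most abundant genes of each tissue list and *Ppp2r1a*. Some genes that this rule names are not reported here. Other names were chosen after their values were seen. Positions are from GENCODE M21, and promoter windows from RefSeq (GRCm38.p6). Python 3.11.15, numpy 2.4.6, pandas 2.3.3, scipy 1.17.1 and matplotlib 3.10.9 were used, and the counting was tested on simulated data. The alternatives were pseudocounts of 0.1 and 1, an FPKM filter of 5 or none, a log2 limit of 2, centering, and equal FPKM sums with and without *Lars2*.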

Additional observations from a re-analysis of the deposited data

How the results depend on the processing

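No paired analysis was possible because each genotype has 1 library, and for the same reason no replicate could be left out. Of 60 alternatives for the counts and medians of the 10 genes, 54 stayed within 1.5 times the value reported. With a log2 limit of 2, the number of genes higher in *tw18*/*tw18* was 2 against wild type (*Nr2f2* and *Tdo2*, beside 5.76% of all genes compared) and 1 against *tw18*/+ (*Tdo2*, beside 4.75%), since the limit is stricter. With equal FPKM sums, 1 gene, *Htra3*, was lower in *tw18*/+ than in wild type (beside 5.35%), and likewise 1 (beside 5.42%) without *Lars2*, a setting chosen after seeing the data. Equal FPKM sums also added *Cebpb* and *Cryab* to the genes higher in *tw18*/*tw18* than in wild type, giving 7 (beside 20.3%), and without *Lars2* added *Cryab* alone, giving 6 (beside 19.3%). *Htra3* was no longer counted as higher in *tw18*/*tw18* than in *tw18*/+ with a pseudocount of 0.1 or 1 or an FPKM filter of 5, which left 6 genes (beside 14.2%, 9.18% and 9.24%). The median of *tw18*/+ against wild type was 0.017 with equal FPKM sums and 0.012 with equal sums without *Lars2*, in place of 0.048. The log2 ratios of the single genes kept their sign in 148 of 150 alternatives, the other 2 being those of *Alpl* in *tw18*/+ against wild type, -0.011 with equal FPKM sums and -0.017 without *Lars2* in place of 0.024, and 34 of the 150 lay outside the counting interval of the ratio. The fewest fragments, 58, were those of *Htra3* in *tw18*/+, so its ratios are the least precise. What the spread between embryos would add is not known.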

Other observations

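Markers of other tissues are given as values. Of 11 measured markers of extra-embryonic ectoderm, 7 were higher and 0 lower in *tw18*/*tw18* than in wild type, with a summed FPKM of 134 in wild type, 133 in *tw18*/+ and 246 in *tw18*/*tw18*. *Rhox5*, a homeobox gene of extra-embryonic tissues, had 81.1, 87.9 and 155, *Furin*, a proprotein convertase gene, 20.0, 15.5 and 24.4, and *Ets2*, a trophoblast factor gene, 12.8, 11.5 and 16.4. The markers of trophoblast giant cells summed to 159, 98.6 and 291, and of 7 measured 1 was higher and 2 lower in *tw18*/*tw18* than in wild type. *Prl3d1*, placental lactogen I, had an FPKM of 113, 61.5 and 202 and *Psg29* 19.8, 4.84 and 38.9, both lowest in *tw18*/+. Visceral endoderm markers summed to 935, 924 and 1284, with 1 of 12 higher and 0 lower in *tw18*/*tw18* than in wild type. The apolipoprotein genes *Apoa1* and *Apob* had 246, 233 and 337, and 131, 142 and 156, and *Ttr* had 124, 119 and 158. Primitive streak and mesoderm markers summed to 199, 139 and 112, with 1 of 9 higher and 6 lower in *tw18*/*tw18* than in wild type. The higher gene was *Ahnak*, with 4.71, 4.99 and 36.5, which is included in these sums. *T*, with 18.3, 6.16 and 0, was among the lower genes. *Eomes* had 77.1, 58.0 and 37.0, *Mixl1* 33.9, 27.5 and 5.76, and *Fgf8* 27.6, 20.9 and 10.1.

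Smooth muscle markers summed to 54.2 in wild type, 75.7 in *tw18*/+ and 224 in *tw18*/*tw18*, with 4 of 6 higher and 2 lower in *tw18*/*tw18* than in wild type. *Des*, the desmin gene, which decidual cells also express, had an FPKM of 45.5, 65.9 and 201, *Tagln* 3.33, 4.90 and 11.9 and *Acta2* 1.38, 1.37 and 7.00. Of 7 measured markers of uterine epithelium, 4 were higher and 0 lower, with sums of 240, 246 and 319. Its keratin genes *Krt18*, with 119, 108 and 186, and *Krt19*, with 15.2, 22.2 and 40.3, and the adhesion gene *Epcam*, with 79.3, 95.5 and 67.8, are also expressed by embryonic epithelia, and *Calb1* was listed at 0 in each library. Blood and immune markers were low, with sums of 11.5, 11.7 and 28.6, 3 of 5 higher and 0 lower. *Lyz2*, a macrophage lysozyme gene, had 3.77, 2.85 and 13.1, *Cd68* 4.96, 2.57 and 7.30 and *Tyrobp* 1.66, 1.74 and 2.76.

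In the list of decidual enzymes, secreted proteins and markers, the 7 genes counted as lower in *tw18*/+ than in wild type were all highest in wild type and lowest in *tw18*/+. Besides *Prl8a2*, *Prl3c1* and *Htra1* these were 4 genes named after their values were seen. *Timp3*, an inhibitor of metalloproteinases, had an FPKM of 210, 22.3 and 81.9, and *Aoc1*, the diamine oxidase gene listed as *Abp1*, had 45.8, 9.26 and 26.2. *Angpt2*, an angiopoietin gene, stood at 11.1, 4.85 and 10.7, and *Inhba*, an activin subunit gene, at 5.07, 1.70 and 4.47. *Hand2*, *Pgr*, *Cryab* and *Htra3* shared the lowest place of *tw18*/+ with these genes but not the highest of wild type.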
